A study of Mus musculus with 6 samples.

Results

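The interferon-stimulated antiviral genes and their regulators were followed in bulk RNA-Seq libraries of NIH3T3 cells, a mouse fibroblast line of embryonic origin. The 44 genes were taken by name, as known interferon receptors, transcription factors, nucleic acid sensors and antiviral effectors, and each name matched 1 gene among the 55401 of the count files. Of these, 41 passed the filter on low counts and were tested, as did 18539 genes in all. The 3 that did not pass were Oas1a, Oas2 and Mx1.

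There were 6 libraries of poly(A)-selected RNA in 3 groups. EV cells carried an empty vector and received the vehicle DMSO (n = 2), TC cells carried the fusion gene TAZ-CAMTA1 and received DMSO (n = 1), and TC + ATA cells carried TAZ-CAMTA1 and received 10 μM ATA for 48 h (n = 3). TAZ-CAMTA1 (TC) joins the transcriptional coactivator TAZ, which acts through the TEAD transcription factors, to CAMTA1. ATA is aurintricarboxylic acid, the compound that the study examined for breaking up the pair of TAZ and TEAD. Cells grew for 16 h before DMSO or ATA was added. The labels number the libraries of a group but do not say that they came from separate cultures, so p-values measure only the spread between these libraries. Because TC had a single library, its own spread is unknown in every comparison that uses it.

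Interferons are secreted proteins that warn cells of viral infection. Type I interferons bind the receptor built from IFNAR1 and IFNAR2, and interferon gamma binds the receptor built from IFNGR1 and IFNGR2. Kinases on the receptors then phosphorylate STAT proteins. STAT2 and IRF9 are part of the complex ISGF3, which binds the interferon-stimulated response element (ISRE), whereas interferon gamma acts through the gamma-activated site (GAS). The genes switched on in this way encode sensors of foreign RNA and DNA, proteins that destroy or trap viral RNA and particles, and parts of the antigen presentation machinery. Fibroblasts both make and answer type I interferon.

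Promoters were searched for the letters of these sites, where interferon-dependent transcription factors bind. RefSeq (GRCm38.p6) gave promoter windows, from 250 bases before to 50 bases after a transcription start, for 34 of the 44 genes. There were none for Dhx58, Zbp1, Oas2, Mx1, Mx2, Ifi27, Rtp4, Usp18, Parp9 and Parp14. The core of the ISRE, GAAANNGAA on either strand, was present in 14 of the 34 genes (41.2%) and in 9.76% of the 27025 genes with a RefSeq promoter. The genes that held it were Stat2, Ifih1, Ddx58, Ifit1, Ifit3, Ifit3b, Oas1a, Oas3, Eif2ak2, Rsad2, Bst2, Ifi44, Isg15 and Trim25. The GAS letters, TTCNNNGAA, were present in 11 of the 34 (32.4%) and in 9.55% of all. The TEAD site letters, GGAATG on either strand, were present in 1 (2.94%), namely Bst2, and in 16.6% of all. The promoters of Bst2 and Oasl1 are printed because these genes had the largest increases with TC, that of Isg15 because the gene is a standard reporter of the interferon response, and those of Ifit3 and Ifit3b because the genes are near-identical copies. Each runs in the direction of transcription, with every ISRE core, GAS or TEAD match in capitals.
Bst2, chr8:71537423-71537722, minus strand: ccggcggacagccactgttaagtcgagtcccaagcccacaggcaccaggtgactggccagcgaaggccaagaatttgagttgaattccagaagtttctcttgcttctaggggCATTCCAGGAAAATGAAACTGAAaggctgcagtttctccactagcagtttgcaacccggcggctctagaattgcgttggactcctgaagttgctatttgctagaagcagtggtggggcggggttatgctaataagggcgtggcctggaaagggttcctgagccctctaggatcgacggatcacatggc
Oasl1, chr5:114922990-114923289, plus strand: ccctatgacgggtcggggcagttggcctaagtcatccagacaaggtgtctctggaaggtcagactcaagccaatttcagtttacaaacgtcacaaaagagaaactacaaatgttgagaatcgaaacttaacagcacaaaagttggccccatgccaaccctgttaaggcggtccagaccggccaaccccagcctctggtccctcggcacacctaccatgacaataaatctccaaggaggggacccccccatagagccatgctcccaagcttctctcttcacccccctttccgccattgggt
Isg15, chr4:156200769-156201068, minus strand: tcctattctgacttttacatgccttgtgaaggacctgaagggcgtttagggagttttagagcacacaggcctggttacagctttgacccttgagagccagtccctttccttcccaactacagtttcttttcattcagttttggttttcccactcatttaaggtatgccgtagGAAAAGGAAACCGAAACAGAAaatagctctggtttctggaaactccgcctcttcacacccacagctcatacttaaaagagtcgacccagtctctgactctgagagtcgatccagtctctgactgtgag
Ifit3, chr19:34583279-34583578, plus strand: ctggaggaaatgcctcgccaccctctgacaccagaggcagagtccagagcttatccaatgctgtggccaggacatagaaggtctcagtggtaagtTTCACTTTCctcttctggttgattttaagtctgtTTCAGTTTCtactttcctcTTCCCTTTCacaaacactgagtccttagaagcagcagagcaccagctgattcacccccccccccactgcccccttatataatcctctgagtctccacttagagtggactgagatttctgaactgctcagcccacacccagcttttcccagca
Ifit3b, chr19:34607707-34608006, plus strand: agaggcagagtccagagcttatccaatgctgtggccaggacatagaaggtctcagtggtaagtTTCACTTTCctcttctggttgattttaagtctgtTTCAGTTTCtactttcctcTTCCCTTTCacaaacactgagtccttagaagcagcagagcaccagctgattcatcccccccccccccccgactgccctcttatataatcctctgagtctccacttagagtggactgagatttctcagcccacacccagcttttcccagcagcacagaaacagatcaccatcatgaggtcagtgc

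In the Bst2 promoter the matches run into each other. The TEAD letters began at −138 from the transcription start, the GAS letters at −136, and the first of 2 overlapping ISRE cores at −130. The Isg15 promoter held 3 overlapping ISRE cores from −78. Ifit3 and Ifit3b each held 3 ISRE matches with the same letters in the same order, from −155 and from −187. The Oasl1 window held none of the letters searched. The ISRE core was present in 2 of the 6 genes with a promoter that were higher in TC than in EV, in 2 of the 7 that were lower and in 9 of the 20 that were not called. A match describes letters only, and binding was not measured here.

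Library totals lay between 58471484 and 74413193 counts, and 3 counts corresponded to between 0.0393 and 0.0528 CPM (counts scaled to a common library size). The summed level of 10 fibroblast markers lay between 15780.2 and 22438 CPM. That of 12 leukocyte and macrophage markers lay between 16.1 and 31.5 CPM, that of 7 epithelial markers between 1.52 and 4.73 CPM and that of 6 endothelial markers between 1.80 and 3.93 CPM. Of the 12 leukocyte and macrophage markers, 7 passed the filter. Among these 2 were called higher and 0 lower for TC over EV, against 14.8% and 13.2% of all genes. The log2 fold changes were positive for 2 and negative for 5, with a median of −0.44. The increases were those of the macrophage genes Lyz2, with 0.495 and 0.249 CPM in EV, 5.66 in TC, and 8.94, 9.59 and 8.40 in TC + ATA, and Cd14, which had 6.93 and 6.22 CPM in EV, 13.9 in TC and at least 12.7 in each TC + ATA library. Csf1r, a receptor that defines macrophages, had 3.17 and 2.77 CPM in EV, 1.41 in TC and at most 1.72 in a TC + ATA library, and its fall for TC + ATA against EV passed the test (adjusted p = 0.00709). The defining marker Itgam had at most 2 counts in a library. The part of these markers in the results below was not tested. In a bulk sample, fewer cells of a type and less RNA per cell cannot be told apart.

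Without added interferon, levels covered a wide range. Per kilobase of exon, the median level in EV of the 41 genes tested was 0.937 RPKM, against 2.76 RPKM for all genes tested. In EV, 24 of the 44 genes lay under 1 RPKM and 6 lay at 10 RPKM or above. The latter were Ifi27 (27.2 RPKM), Ifngr2 (15.4 RPKM), Irf3 (14.4 RPKM), Ifit2 (14.3 RPKM), Ifngr1 (12.4 RPKM) and Bst2 (10.5 RPKM). In TC the highest level of the group was that of Bst2, at 83.8 RPKM, followed by Ifit2 at 30.6 RPKM. Bst2 also led in TC + ATA, at a mean of 107 RPKM.

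Several genes that serve as reporters of interferon signalling were at or near 0 in every library. Oas1a and Oas2, whose products make the messenger that activates RNase L, had at most 2 and 6 counts in a library, and their relative Oas3 at most 27. Oas1a shares 57.6% of its 50-base stretches with Oas1g, so its count is uncertain. Mx1, a dynamin-like GTPase that traps viral nucleocapsids, had at most 8 counts and Rsad2, which encodes viperin, at most 11. The interferon genes also had few or no counts. Of 13 interferon ligand genes, 6 had 0 counts in all libraries and 1 (Ifnz) passed the filter. The others, Ifnb1 and Ifng among them, never exceeded 5 counts in a library. How reads that match several genes were counted is not known, so genes with similar copies may have lost reads.

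**Figure D1:**
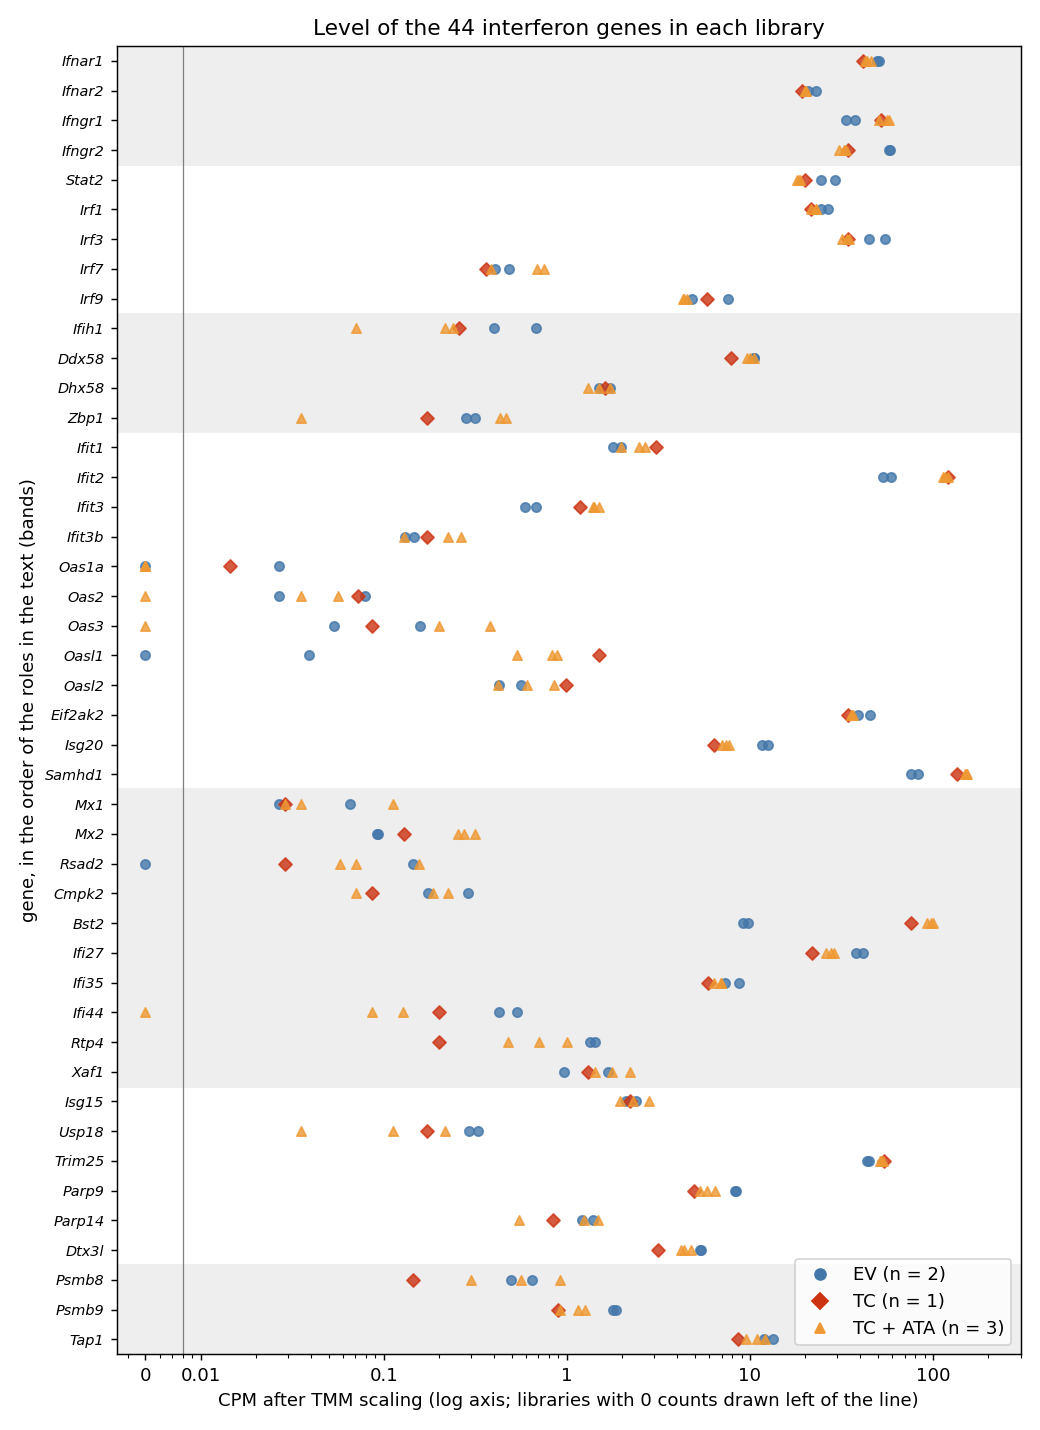
Level of each of the 44 genes in each library, in CPM on a log axis, with the genes ordered by role and the groups EV, TC and TC + ATA marked by symbol. Among the strongly expressed genes, Bst2 shows the widest gap, from 9.21 and 9.80 CPM in EV to 75.7 CPM in TC.

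The comparison of TC with EV sets cells that carry the fusion beside cells with an empty vector. With 1 TC library, a difference of that cell population or culture cannot be told apart from an effect of the fusion. Bst2, which encodes tetherin, a membrane protein that holds budding virus particles on the cell surface, stood 7.96-fold higher in TC. Ifit2, Samhd1, Ifngr1, Trim25 and Oasl1 were also higher. Rtp4, Isg20, Ifi27, Ifngr2, Dtx3l, Parp9, Tap1, Irf3, Stat2 and Ddx58 were lower. In edgeR's quasi-likelihood test with Benjamini-Hochberg adjustment over all genes, the source of every adjusted p and standard error (SE) given here unless another tool is named, 6 of the 41 genes tested (14.6%) were higher at an adjusted p of at most 0.05, against 14.8% of all genes. There were 10 lower (24.4%), against 13.2% of all genes. With a log2 fold change of at least 2 as well, 2 were higher (Bst2 and Oasl1), against 2.36% of all genes, and 1 was lower by as much (Rtp4), against 1.27%. Oasl1 had 0 and 3 counts in EV and passed the filter only through the libraries in which it was high. Its place in these counts is no separate support. The share of genes called higher was near that of all genes. The median log2 fold change was −0.30, against −0.03 for all genes.

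The comparison of TC + ATA with TC sets ATA beside DMSO in cells that carry the fusion, and rests on the same single TC library. edgeR called 0 of the genes higher and 0 lower, against 0.426% and 0.156% of all genes, and DESeq2 called 0 in either direction. At an unadjusted p under 0.05, 7 were higher (Ddx58, Bst2, Ifi27, Rtp4, Dtx3l, Psmb8 and Tap1), against 5.65% of all genes, and 0 lower, against 3.95%. Every TC + ATA library lay above the TC library for 20 of the 41 genes, against 30.5% of all genes, and below it for 9, against 32.7%. The median log2 fold change was 0.20, against 0.003 for all genes. With EV left out of the fit, Bst2, Ifi27 and Samhd1 were called higher (edgeR, adjusted p = 0.00143, 0.0223 and 0.0193), as were 4.42% of all genes. They were also called without EV 1 (adjusted p = 0.00222, 0.0278 and 0.0283) and without EV 2 (adjusted p = 0.00186, 0.0229 and 0.0200). The counts of the EV pair differed by a chi-square of 60.6 per degree of freedom over genes, and those of TC + ATA pairs by 5.9 to 6.58.

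TC + ATA and EV differ in both the fusion and the drug. Here 7 genes were higher (17.1%), against 18% of all genes, and 10 were lower (24.4%), against 18.6%. With a log2 fold change of at least 2 as well, 2 were higher (Bst2 and Oasl1), against 2.8% of all genes, and 1 was lower by as much (Ifi44), against 1.06%. The limit given above for Oasl1 holds here too. The median log2 fold change was −0.12, against −0.01 for all genes. This comparison shares the EV libraries with that of TC and EV, and the values of both are given side by side below.

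**Figure D2:**
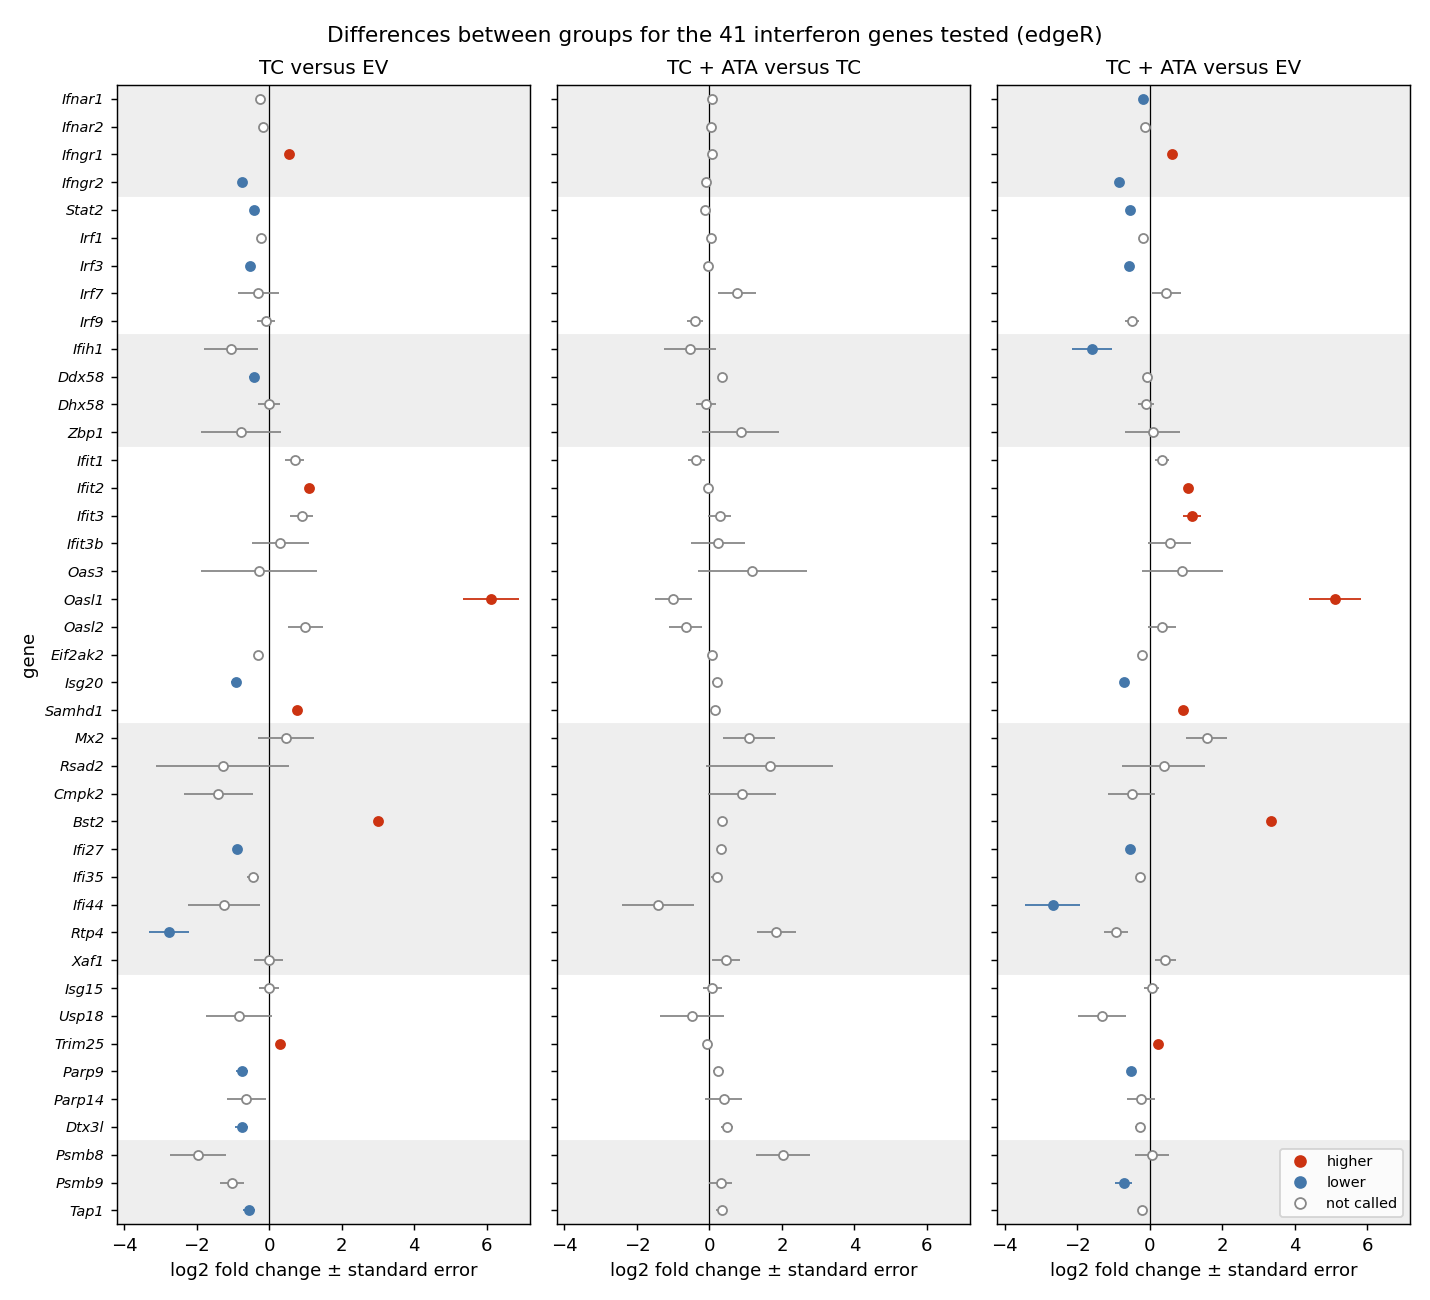
Log2 fold change of each of the 41 genes tested in the comparisons TC versus EV, TC + ATA versus TC and TC + ATA versus EV, with bars for the standard error and genes called by edgeR marked. For TC over EV 6 genes are called higher and 10 lower, and for TC + ATA over TC 0 and 0.

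The receptor chains for interferon gamma moved in opposite directions. Ifngr1, the ligand-binding chain (chr10:19591949-19610229, GRCm38), had 37.2 and 33.3 CPM in EV, 51.7 in TC, and 57.2, 55.7 and 50.7 in TC + ATA. Every library with TC was above both EV libraries. On the log2 scale the difference was 0.55 (SE 0.10, adjusted p = 0.00383) for TC over EV and 0.08 (95% interval −0.15 to 0.30, adjusted p = 0.868) for TC + ATA over TC. Ifngr2, the chain that recruits the second kinase (chr16:91547072-91565623), had 57.7 and 58.2 CPM in EV, 34.3 in TC, and 33.6, 30.6 and 32.8 in TC + ATA. Every library with TC was below both EV libraries, with a log2 fold change of −0.76 (SE 0.09, adjusted p = 0.000333) for TC over EV and of −0.09 (95% interval −0.28 to 0.11, adjusted p = 0.812) for TC + ATA over TC.

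The chains of the type I receptor stayed closer to EV. Ifnar1 had 49.1 and 50.7 CPM in EV, 41.5 in TC, and 42.3, 45.6 and 43.3 in TC + ATA. The gene's log2 fold change lay just outside the limit for TC over EV, at −0.26 (SE 0.09, adjusted p = 0.0504), and just inside it for TC + ATA over EV, at −0.19 (SE 0.06, adjusted p = 0.0446). The latter call was lost in DESeq2 (adjusted p = 0.128), without EV 2 (adjusted p = 0.0583) and without TC + ATA 1, 2 or 3 (adjusted p = 0.170, 0.0816 and 0.146). The call was also lost with RLE scaling, without a filter on low counts and with a filter of at least 1 CPM in 2 libraries. Ifnar2 lay between 19.3 and 22.9 CPM in all libraries and was not called in any comparison.

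Of the 5 transcription factors, 2 (40%) were lower in TC than in EV, against 13.2% of all genes, and 0 higher, against 14.8%. Irf3, the factor that switches on interferon genes after a sensor is triggered, had 44.8 and 54.3 CPM in EV, 34.4 in TC, and 34.7, 34.1 and 32.0 in TC + ATA. Stat2, the subunit of ISGF3 that carries its activation domain, had 24.5 and 29.0 CPM in EV, 19.98 in TC, and 18.7, 18 and 18.6 in TC + ATA. For both genes every library with TC lay below EV. The log2 fold change of Irf3 was −0.53 (SE 0.12, adjusted p = 0.0117) for TC over EV and −0.56 (SE 0.09, adjusted p = 0.00111) for TC + ATA over EV. That of Stat2 was −0.42 (SE 0.12, adjusted p = 0.0288) for TC over EV and −0.54 (SE 0.09, adjusted p = 0.00130) for TC + ATA over EV. The Stat2 call for TC over EV was lost with only those groups in the fit (adjusted p = 0.1) and without TC + ATA 1, 2 or 3 (adjusted p = 0.0595, 0.0618 and 0.0677). Irf1, a target and mediator of interferon gamma, lay between 21.4 and 26.6 CPM, Irf9, the DNA-binding subunit of ISGF3, between 4.33 and 7.55 CPM, and Irf7, which amplifies type I interferon in infected cells, between 0.360 and 0.748 CPM. None of these last genes was called in any comparison of the main fit.

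Among the sensors, Ddx58 encodes RIG-I, which binds the ends of uncapped viral RNA. It had 10.6 and 10.6 CPM in EV, 7.89 in TC, and 10.5, 10.0 and 9.68 in TC + ATA, so that the single TC library was the lowest. This gave a log2 fold change of −0.42 (SE 0.12, adjusted p = 0.0346) for TC over EV and 0.35 (95% interval 0.08 to 0.62, adjusted p = 0.351) for TC + ATA over TC. The call for TC over EV was lost in DESeq2 (adjusted p = 0.0814), with only the groups compared (adjusted p = 0.214) and without TC + ATA 1, 2 or 3 (adjusted p = 0.0677, 0.0784 and 0.0693). Ifih1, which encodes MDA5, the sensor of long double-stranded RNA, had 30 and 52 counts in EV, 18 in TC, and 4, 17 and 15 in TC + ATA. Its log2 fold change for TC + ATA over EV stood at −1.59 (SE 0.55, adjusted p = 0.0489). That call was lost in DESeq2 (adjusted p = 0.0788), without EV 2 (adjusted p = 0.225) and without TC + ATA 1, 2 or 3 (adjusted p = 0.0998, 0.0712 and 0.101). The Ifih1 call was also lost with RLE and with upper quartile scaling. Dhx58 (LGP2, a regulator of the other RNA sensors) lay between 1.30 and 1.73 CPM, and Zbp1, which binds Z-form nucleic acid, had between 2 and 33 counts. Neither was called.

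Effectors that act on RNA, nucleotides or translation numbered 12. Of the 10 tested, 3 (30%) were higher in TC than in EV and 1 (10%) was lower, against 14.8% and 13.2% of all genes. The 3 include Oasl1, which passed the filter only through the libraries in which it was high and is no separate support. Ifit2 (chr19:34550694-34576419) belongs to a family that binds viral RNA and hinders its translation. It had 53.4 and 59.3 CPM in EV, 120.3 in TC, and 121, 113 and 116 in TC + ATA. Every library with TC lay above EV, and TC lay within the range of TC + ATA. Expressed as a log2 fold change, the difference was 1.10 (SE 0.09, adjusted p = 2.73e-05) for TC over EV and −0.05 (95% interval −0.24 to 0.15, adjusted p = 0.911) for TC + ATA over TC.

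The other Ifit genes lie beside Ifit2 on chromosome 19. Ifit3 (chr19:34583531-34588731) had 44 and 52 counts in EV, 82 in TC, and 80, 99 and 104 in TC + ATA. The gene's log2 fold change was 0.89 (SE 0.32, adjusted p = 0.0710) for TC over EV and 1.17 (SE 0.25, adjusted p = 0.00607) for TC + ATA over EV. Ifit3b, the copy whose promoter is printed above with that of Ifit3, had between 9 and 16 counts. Ifit3 shares 51.2% of its 50-base stretches with Ifit3b, so the split of reads between them is uncertain. Ifit1 had 1.78 and 1.98 CPM in EV, 3.05 in TC, and 1.97, 2.68 and 2.49 in TC + ATA. It was not called, with a log2 fold change of 0.70 (SE 0.26, adjusted p = 0.0742) for TC over EV.

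Oasl1 (chr5:114923240-114937915) belongs to the oligoadenylate synthetase family but lacks the enzyme activity. It had 0 and 3 counts in EV, 104 in TC, and 47, 63 and 37 in TC + ATA. EV was at or under the floor of 3 counts per library, and every library with TC was far above it. The ratio of the pooled levels was 75.4 for TC to EV (95% exact interval 25.1 to 372) and 37.5 for TC + ATA to EV (12.6 to 184), and these intervals cover counting error only. The gene passed the filter on low counts only through the libraries in which it was high, so that its call (adjusted p = 0.000420 for TC over EV and 0.000547 for TC + ATA over EV) is no separate support. Without any filter the gene was called higher in both comparisons too, but from the same counts, which adds no separate support. With a filter of at least 1 CPM in 2 libraries the gene was not tested. All TC + ATA libraries lay below TC, by a log2 fold change of −1.0 (95% interval −2.17 to 0.17, adjusted p = 0.596). Its neighbour Oasl2 had 0.428 and 0.564 CPM in EV, 0.994 in TC, and 0.422, 0.607 and 0.848 in TC + ATA, with no call.

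Samhd1 (chr2:157097533-157135265) hydrolyses deoxynucleotides and so starves reverse transcription. It had 83.2 and 75.6 CPM in EV, 135 in TC, and 152, 152 and 149 in TC + ATA, with no overlap between the groups. The log2 fold change was 0.76 (SE 0.08, adjusted p = 0.000169) for TC over EV and 0.16 (95% interval −0.02 to 0.35, adjusted p = 0.575) for TC + ATA over TC. Isg20, an exonuclease that degrades RNA, went the other way. It had 12.5 and 11.6 CPM in EV, 6.37 in TC, and 7.69, 7.38 and 7.03 in TC + ATA, and differed by −0.92 (SE 0.14, adjusted p = 0.00110) on the log2 scale for TC over EV and −0.71 (SE 0.10, adjusted p = 0.000457) for TC + ATA over EV. Eif2ak2, the kinase PKR that stops translation on double-stranded RNA, had 38.7 and 45.3 CPM in EV, 34.1 in TC, and 35.7, 36.1 and 36.6 in TC + ATA. It was not called, with a log2 fold change of −0.30 (SE 0.11, adjusted p = 0.0665) for TC over EV.

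**Figure D3:**
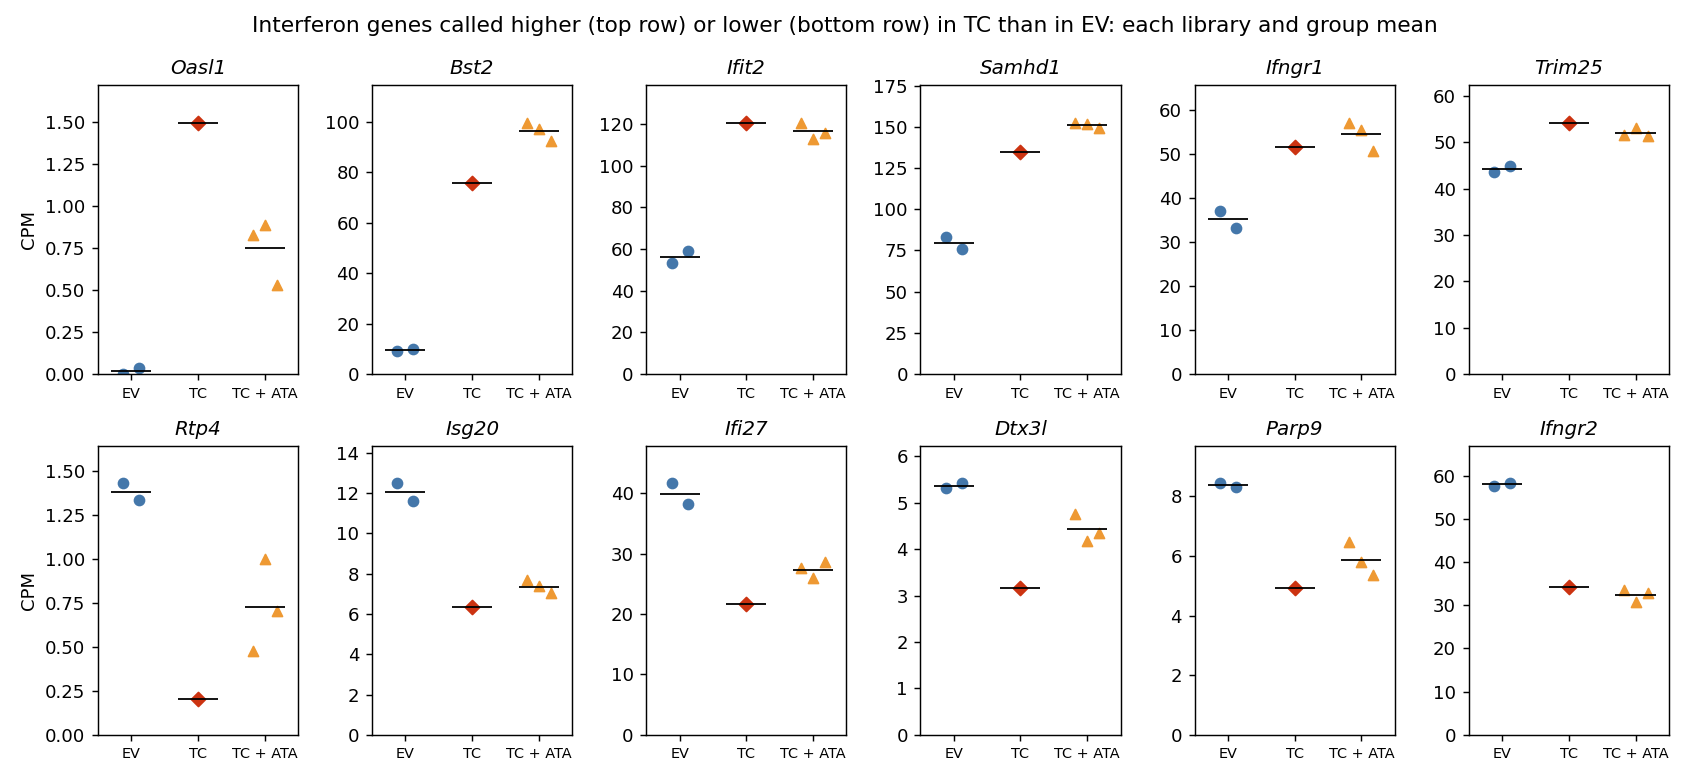
CPM in each library (points) and the mean of each group (lines), for the genes called higher in TC than in EV (top) and for the 6 largest of the 10 decreases (bottom). Bst2 rose from 9.21 and 9.80 CPM in EV to 75.7 CPM in TC, and Rtp4 fell from 1.43 and 1.34 CPM to 0.202 CPM.

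Among effectors that act on viral particles, membranes or replication, Bst2 (chr8:71534255-71537456, minus strand) had the largest change for TC over EV. It had 9.21 and 9.80 CPM in EV, 75.7 in TC, and 99.6, 97.2 and 92.4 in TC + ATA. The means were 9.50 ± 0.414 CPM in EV (SD, n = 2) and 96.4 ± 3.66 CPM in TC + ATA (SD, n = 3). The groups did not overlap, and TC + ATA lay further from EV than TC did. On the log2 scale the difference was 2.99 (SE 0.09, adjusted p = 1.62e-07) for TC over EV and 3.34 (SE 0.08, adjusted p = 3.01e-08) for TC + ATA over EV. Between TC + ATA and TC it was 0.35 (95% interval 0.16 to 0.53, adjusted p = 0.139). Leaving out each replicate in turn moved that difference between 0.33 and 0.38.

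Rtp4, an interferon-induced chaperone of membrane receptors, had the largest decrease called for TC over EV. It had 107 and 102 counts in EV, 14 in TC, and 27, 71 and 49 in TC + ATA. The TC library was the lowest, and the TC + ATA libraries lay between it and EV. This gave a log2 fold change of −2.77 (SE 0.56, adjusted p = 0.00584) for TC over EV, 1.85 (95% interval 0.62 to 3.08, adjusted p = 0.258) for TC + ATA over TC and −0.92 (SE 0.33, adjusted p = 0.0602) for TC + ATA over EV. The last value passed the limit without TC + ATA 2 (adjusted p = 0.0383), with scaling by library size and without a filter on low counts. Rtp4 overlaps Gm45338 on the same strand over 296 of its 2131 exonic bases, where reads cannot be told apart.

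Ifi27, a small membrane protein of the interferon response, had 41.6 and 38.1 CPM in EV, 21.7 in TC, and 27.5, 25.9 and 28.6 in TC + ATA. Every library with TC lay below EV, and every TC + ATA library lay above TC. Expressed as a log2 fold change, the difference was −0.88 (SE 0.11, adjusted p = 0.000314) for TC over EV, 0.33 (95% interval 0.11 to 0.56, adjusted p = 0.269) for TC + ATA over TC and −0.54 (SE 0.07, adjusted p = 0.000488) for TC + ATA over EV. Ifi44 had 32 and 41 counts in EV, 14 in TC, and 0, 9 and 6 in TC + ATA. It was called for TC + ATA over EV, with a log2 fold change of −2.68 (SE 0.77, adjusted p = 0.0236), and the call was lost without EV 2 or TC + ATA 3 (adjusted p = 0.0557 and 0.0758). Ifi35 lay between 5.86 and 8.69 CPM and Xaf1, a partner of the apoptosis inhibitor XIAP, between 0.970 and 2.2 CPM. Mx2, annotated as a polymorphic pseudogene, had between 7 and 19 counts, Cmpk2, a mitochondrial nucleotide kinase, between 4 and 22, and Rsad2 between 0 and 11. None of these last genes was called in any comparison of the main fit.

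Isg15 encodes the ubiquitin-like protein that is among the most inducible products of interferon. It had 2.10 and 2.39 CPM in EV, 2.22 in TC, and 2.31, 2.79 and 1.94 in TC + ATA, and the groups overlapped. The log2 fold change was −0.02 (95% interval −0.65 to 0.62, adjusted p = 0.977) for TC over EV and 0.08 (95% interval −0.52 to 0.68, adjusted p = 0.960) for TC + ATA over TC, intervals too wide to show that the level was the same. Usp18, which removes ISG15 from proteins, had between 2 and 25 counts and was not called. Trim25, a ubiquitin ligase that assists RIG-I, had 43.5 and 44.8 CPM in EV, 54.2 in TC, and 51.6, 53.2 and 51.3 in TC + ATA. Its log2 fold change was 0.30 (SE 0.08, adjusted p = 0.0218) for TC over EV. That call was lost with scaling by library size (adjusted p = 0.176), with only the groups compared (adjusted p = 0.231) and without TC + ATA 1, 2 or 3 (adjusted p = 0.0597, 0.0646 and 0.0600). In TC + ATA versus EV it was 0.24 (SE 0.06, adjusted p = 0.0135), a call lost with scaling by library size (adjusted p = 0.134) and without TC + ATA 1 or 2 (adjusted p = 0.0537 and 0.0791).

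Parp9 and Dtx3l encode partners in one complex, an ADP-ribosyltransferase and a ubiquitin ligase, and lie side by side on chromosome 16 on opposite strands. Parp9 had 8.44 and 8.30 CPM in EV, 4.94 in TC, and 6.46, 5.80 and 5.35 in TC + ATA. Dtx3l had 5.31 and 5.42 CPM in EV, 3.16 in TC, and 4.75, 4.18 and 4.36 in TC + ATA. For both genes TC was the lowest library, and TC + ATA lay between TC and EV. The log2 fold change of Parp9 was −0.76 (SE 0.16, adjusted p = 0.00811) for TC over EV and −0.51 (SE 0.12, adjusted p = 0.00806) for TC + ATA over EV. That of Dtx3l was −0.76 (SE 0.18, adjusted p = 0.0117) for TC over EV, 0.49 (95% interval 0.10 to 0.87, adjusted p = 0.368) for TC + ATA over TC and −0.28 (SE 0.13, adjusted p = 0.121) for TC + ATA over EV. The genes overlap over 458 exonic bases and the library kit does not mark strand, so their values are not independent. Parp14, another ADP-ribosyltransferase, had between 31 and 105 counts and was not called.

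In antigen processing, Tap1, a subunit of the transporter that brings peptides to MHC class I molecules, had 11.98 and 13.3 CPM in EV, 8.57 in TC, and 9.55, 10.97 and 12.02 in TC + ATA. The gene's log2 fold change was −0.56 (SE 0.16, adjusted p = 0.0278) for TC over EV and 0.34 (95% interval 0.002 to 0.68, adjusted p = 0.515) for TC + ATA over TC. The call for TC over EV was lost with only those groups in the fit (adjusted p = 0.0600) and without TC + ATA 2 (adjusted p = 0.0571). Psmb9, a catalytic subunit of the immunoproteasome, overlaps Tap1 on the opposite strand over 212 exonic bases. It had 134 and 141 counts in EV, 62 in TC, and 52, 89 and 80 in TC + ATA. Its log2 fold change lay just outside the limit for TC over EV, at −1.03 (SE 0.34, adjusted p = 0.0503), and just inside it for TC + ATA over EV, at −0.71 (SE 0.24, adjusted p = 0.0421). The latter call was lost in DESeq2 (adjusted p = 0.0961), without EV 1 or 2 (adjusted p = 0.0631 and 0.0953) and without TC + ATA 1, 2 or 3 (adjusted p = 0.107, 0.0687 and 0.102). Psmb8, another catalytic subunit, had 48 and 38 counts in EV, 10 in TC, and 17, 65 and 39 in TC + ATA. TC was the lowest library, and the log2 fold change was −1.97 (SE 0.76, adjusted p = 0.0896) for TC over EV and 2.04 (95% interval 0.36 to 3.72, adjusted p = 0.404) for TC + ATA over TC. Psmb8 overlaps Gm20496 on the opposite strand over 498 exonic bases.

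Weakly expressed genes of the group varied between the TC + ATA libraries. Among the 19 tested genes with a mean under 2 CPM, a limit chosen after the values were seen, TC + ATA 1 was the lowest of its group for 13 (68.4%), against 36.9% of all genes under 2 CPM. Among the 22 tested genes at 2 CPM or above it was the lowest for 5 (22.7%), against 25.7%. Over all 41 tested genes, without the limit, it was the lowest for 18 (43.9%), against 29.8% of all genes. Zbp1 had 2 counts in TC + ATA 1 and 33 and 30 in TC + ATA 2 and 3, and Oas3 had 0 counts against 27 and 14. The library total of TC + ATA 1 was also the smallest, at 58471484 counts against 72252063 and 69969024. Of the 7 tested leukocyte and macrophage markers, TC + ATA 1 was the lowest of its group for 4 and the highest for 1, Csf1r. The following genes outside the group, chosen after their values were seen, had their lowest value there. Ptprc, the leukocyte gene CD45, had 3.17 and 2.87 CPM in EV, 2.23 in TC, and 0.282, 5.33 and 4.21 in TC + ATA. Cd3e, a T cell gene, had 0.562 and 0.341 CPM in EV, 0.331 in TC, and 0.123, 0.649 and 0.618 in TC + ATA, and the MHC class I gene H2-Q7 had 1.76 and 1.65 CPM in EV, 0.663 in TC, and 0.141, 3.24 and 2.69 in TC + ATA. The part of these genes and of the library total in the values of the weakly expressed genes was not tested. Without TC + ATA 1, 5 of the genes were called higher and 9 lower for TC over EV, against 12.5% and 11.2% of all genes in that fit. For TC + ATA over TC edgeR called 0 higher and 0 lower, against 0.152% and 0.0651%, and for TC + ATA over EV 6 higher and 7 lower, against 14.1% and 13.8%.

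**Figure D4:**
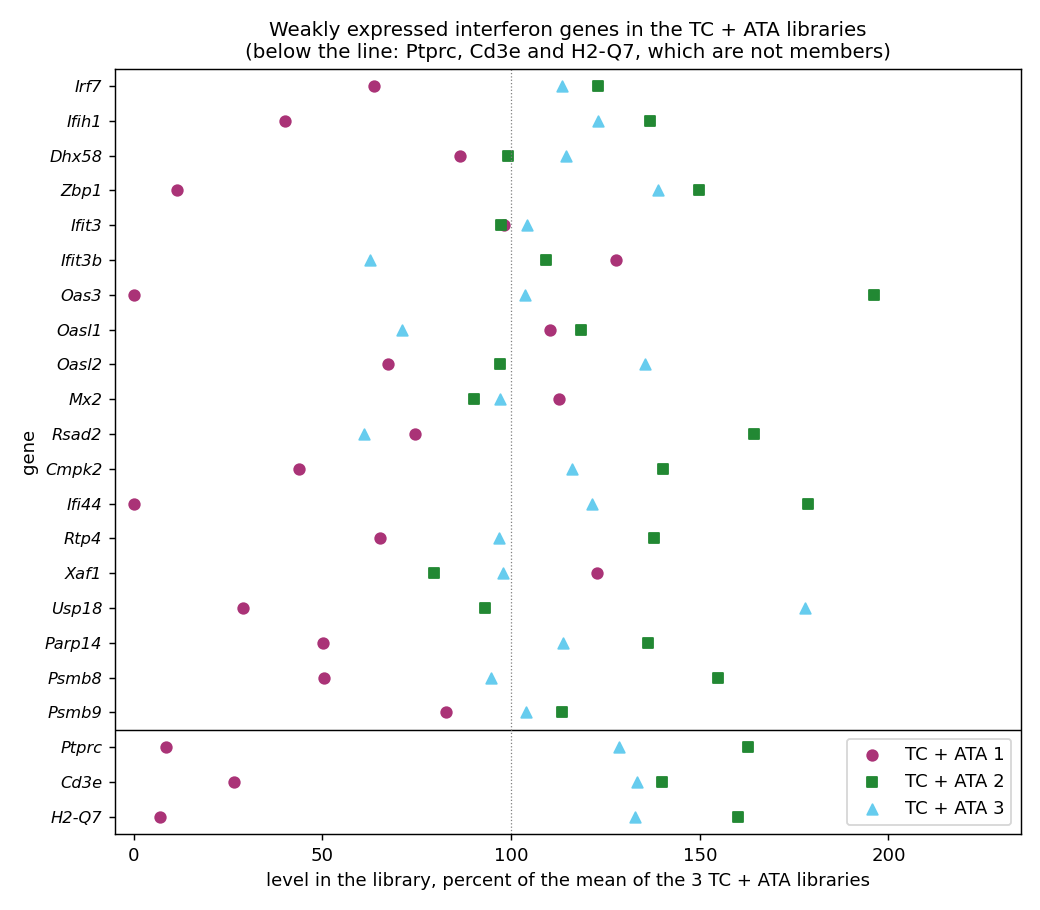
Level in each TC + ATA library as a percentage of the mean of the 3 TC + ATA libraries, for the 19 tested interferon genes with a mean under 2 CPM and for Ptprc, Cd3e and H2-Q7. TC + ATA 1 is the lowest library for 13 of these interferon genes and for Ptprc, Cd3e and H2-Q7. The 2 CPM limit and these last genes were chosen after the values were seen. Of the 7 tested leukocyte and macrophage markers, TC + ATA 1 is the lowest for 4 and the highest for 1.

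Other genes of the pathway were counted in the same fit. Of all genes, edgeR called 14.8% higher and 13.2% lower for TC over EV, and 0.426% and 0.156% for TC + ATA over TC. Of 18 tested genes of sensing and induction, 4 (22.2%) were higher in TC than in EV and 3 (16.7%) were lower. Ifi205, of the p200 family, had a log2 fold change of 2.10 (SE 0.24, adjusted p = 0.000214), and Zc3hav1, the antiviral protein ZAP, one of 0.67 (SE 0.08, adjusted p = 0.000277). Ticam1, the adaptor TRIF, had −0.999 (SE 0.13, adjusted p = 0.000511). Irf5, a factor that acts downstream of Toll-like receptors, had 9.76 and 10.2 CPM in EV, 3.88 in TC, and 9.40, 9.82 and 9.45 in TC + ATA. The TC library was low and the TC + ATA libraries lay close to EV. The log2 fold change of Irf5 was −1.36 (SE 0.14, adjusted p = 0.000104) for TC over EV and 1.30 (SE 0.13, adjusted p = 0.00538) for TC + ATA over TC, the 1 call of this list in the latter comparison.

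Of 14 JAK-STAT genes, 4 (28.6%) were higher in TC than in EV and 4 (28.6%) were lower, against 14.8% and 13.2% of all genes. Il10rb, a chain of the interferon lambda and interleukin 10 receptors, had a log2 fold change of 0.94 (SE 0.12, adjusted p = 0.000398) and Ptpn11, the phosphatase SHP2, one of 0.57 (SE 0.08, adjusted p = 0.00110). Stat3, which transmits interleukin 6 family signals, had 99.2 and 104 CPM in EV, 37.0 in TC, and 52.4, 52.6 and 51.8 in TC + ATA. The TC + ATA libraries lay between TC and EV, and the log2 fold change was −1.46 (SE 0.08, adjusted p = 4.05e-06) for TC over EV and 0.50 (SE 0.08, adjusted p = 0.0303) for TC + ATA over TC.

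Of 45 other antiviral interferon-stimulated genes tested, 9 (20%) were higher in TC than in EV and 8 (17.8%) were lower. The shares of all genes were 14.8% and 13.2%. For TC + ATA over TC edgeR called 0. At an unadjusted p under 0.05, 4 were higher, against 5.65% of all genes, and 1 lower, against 3.95%. The apolipoprotein L genes Apol9a and Apol9b, close copies between which the split of reads is uncertain, had log2 fold changes of 1.88 (SE 0.18, adjusted p = 7.07e-05) and 1.66 (SE 0.21, adjusted p = 0.000468). Trim30a had −2.86 (SE 0.34, adjusted p = 0.000279) and Ifitm3, which blocks virus entry from endosomes, −1.21 (SE 0.16, adjusted p = 0.000498). Of 17 genes of MHC class I presentation, 5 (29.4%) were higher in TC than in EV and 5 (29.4%) were lower, against the same 14.8% and 13.2%. For TC + ATA over TC edgeR called 0. At an unadjusted p under 0.05, 4 were higher, against 5.65% of all genes, and 0 lower, against 3.95%. Nlrc5, the transactivator of MHC class I genes, had 1.48 and 1.18 CPM in EV, 9.87 in TC, and 9.22, 9.56 and 9.71 in TC + ATA. TC over EV came to 2.89 (SE 0.16, adjusted p = 3.60e-06) on the log2 scale, and every library with TC was above EV. B2m, the light chain of MHC class I, had 249.6 and 198 CPM in EV, 412 in TC, and 489.9, 489 and 494 in TC + ATA. TC over EV came to 0.88 (SE 0.12, adjusted p = 0.000780) on the log2 scale, and every library with TC was above EV. H2-Q4 had a log2 fold change of −0.69 (SE 0.21, adjusted p = 0.0366) and Psme1, an activator subunit of the proteasome, one of −0.58 (SE 0.09, adjusted p = 0.00178).

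The IRG and GBP families are interferon-inducible GTPases known for attacking the vacuoles of intracellular pathogens. Of 16 tested, 6 (37.5%) were higher in TC than in EV and 1 (Gbp2, 6.25%) was lower. The shares of all genes were 14.8% and 13.2%. In TC + ATA, 6 (37.5%) were lower than in TC, against 0.156% of all genes. Gm4841 had 7 and 19 counts in EV, 650 in TC, and 8, 11 and 3 in TC + ATA, and Iigp1 had 19 and 21 counts in EV, 483 in TC, and 10, 21 and 10 in TC + ATA. The high values of both genes were those of the single TC library.

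**Figure D5:**
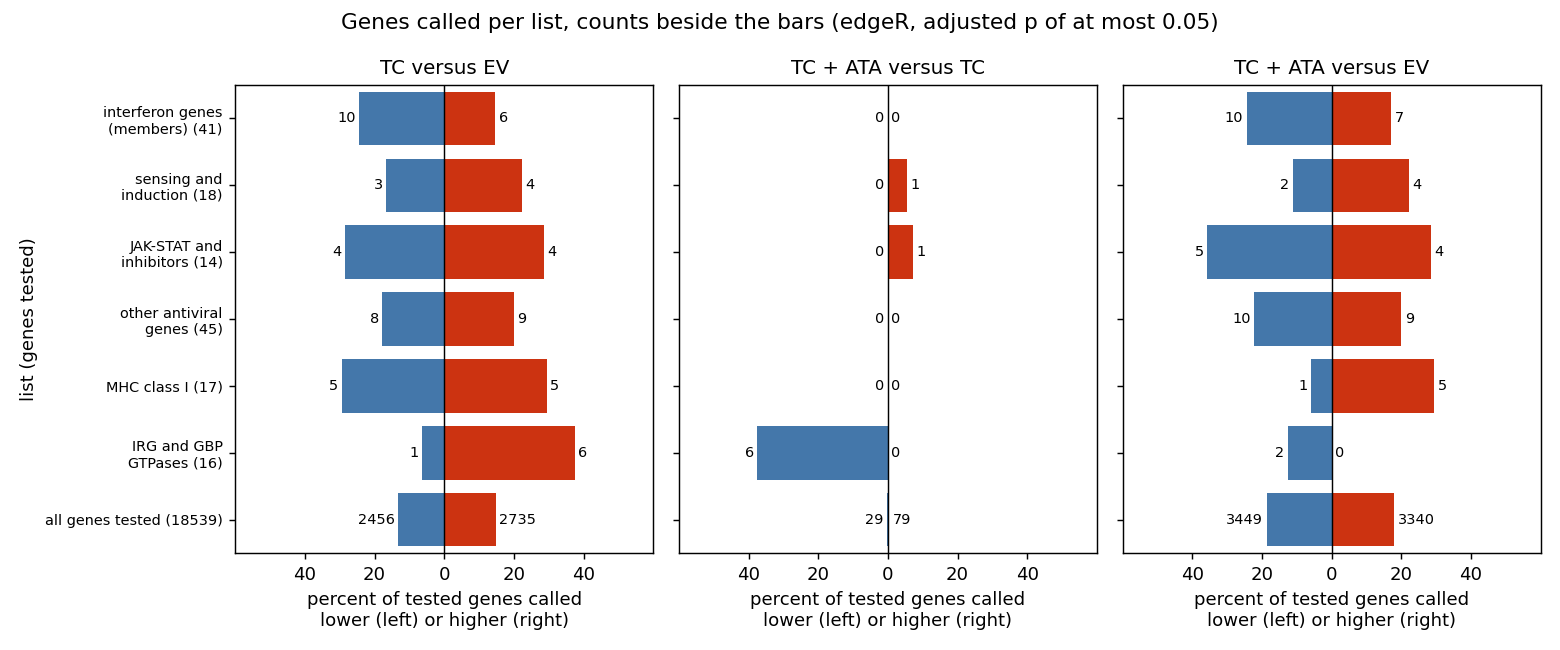
Percentage of the tested genes called lower and higher by edgeR in each comparison, for the interferon genes described here, for the related lists and for all genes tested, with counts beside the bars. For TC over EV the interferon genes had 6 higher and 10 lower, and for TC + ATA over TC 0 and 0, where the IRG and GBP GTPases had 6 lower.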

How the data were processed

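Gene counts were analysed for 6 poly(A) RNA-Seq libraries prepared with the NEBNext Ultra II kit, which does not mark strand. The authors aligned reads to mm10 with HISAT2 2.2.1, per the labels, and deposited raw counts per Ensembl gene. The annotation release, strand setting and treatment of multi-mapping reads are not given in the sources used here. Of 55401 gene identifiers, 55141 matched GENCODE M21 (GRCm38), which gave symbols and coordinates. Genes were filtered with filterByExpr, scaled by TMM and tested with edgeR 4.0.16 (glmQLFit and glmQLFTest, R 4.3.3, limma 3.58.1) in a single fit over EV, TC and TC + ATA, with Benjamini-Hochberg adjustment over the 18539 genes tested and 3 residual degrees of freedom. CPM and RPKM were computed here from the deposited counts. Alternatives were other scalings, other filters, DESeq2 1.42.0, only the groups compared, a replicate block and leaving out each replicate. The members and lists were chosen with earlier results of these data known. Every member was described, and in the other lists up to 2 genes per direction with a mean of at least 1 CPM were named by the size of their change among those called. A gene that this rule would name is not reported here.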

Additional observations from a re-analysis of the deposited data

How the results depend on the processing

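With a block for the replicate number, the genes called lower fell to 6 in TC versus EV and to 6 in TC + ATA versus EV, against 7.91% and 11.8% of all genes. The block leaves fewer residual degrees of freedom than the 3 of the main fit, and TC + ATA 3 is alone in its block. An effect of pairing and this loss of degrees of freedom cannot be told apart. The calls lost under the block were those of Irf3, Stat2, Ddx58, Tap1 and Trim25 in TC versus EV, and of Ifnar1, Ifih1, Psmb9, Parp9 and Trim25 in TC + ATA versus EV. Deviations from the group means correlated by −0.0161 for number 1 and −0.164 for number 2. With 2 EV libraries, the EV deviations of number 1 mirror those of number 2. These values therefore cannot decide whether the numbers pair the libraries. With only the groups compared, 3 genes were called higher in TC + ATA versus TC, against 4.42% of all genes. Leaving out each replicate in turn gave 5 to 6 higher and 7 to 14 lower in TC versus EV, while 11.8% to 20.4% and 10.4% to 20.1% of all genes were called. It gave 0 to 3 higher and 0 lower in TC + ATA versus TC, with 0.0382% to 4.41% and 0.0164% to 4.14% of all genes. In TC + ATA versus EV it gave 6 to 8 higher and 6 to 12 lower (6 without TC + ATA 3), with 14% to 22.1% and 13.1% to 23.9% of all genes. Some alternatives also called genes that the main fit did not. In TC + ATA versus EV these included Irf1, Ifi35 and Eif2ak2, lower with scaling by library size, and Irf9, lower without a filter. Mx2 was higher there with only the groups compared. In TC versus EV they included Ifi35, lower with scaling by library size, and Eif2ak2 and Psmb8, lower without a filter. Oasl1, Ifi44 and Ifih1 were not tested with a filter of at least 1 CPM in 2 libraries. The log2 fold change of Irf3 in TC + ATA versus TC was −0.03 and lay between −0.056 (without TC + ATA 1) and 0.0031 (without TC + ATA 3) with a replicate left out. The cause of these changes was not tested. Of the values of single genes under the alternatives, 732 kept their direction and side of the threshold, 52 lost the call, 23 gained it and 1 turned. These values cover the 21 genes called in either comparison with EV, in all 3 comparisons. They include TC + ATA versus TC, where 0 were called, so many of the 732 had no call to lose. Scaling by library size moved the median log2 fold change of all genes in TC versus EV from −0.03 to −0.13. The single TC library and the low counts of many of the genes limit what could be detected.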
